A study of Rattus norvegicus with 10 samples.

Results

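The p53 target genes examined here are 9 genes that the tumour suppressor p53 is known to switch on: Cdkn1a, Mdm2, Ccng1, Bax, Bbc3, Phlda3, Tp53inp1, Eda2r and Aen. They were found by gene name in a deposited table of 32623 rat genes. A row was found for 8 of the 9. No row used here carried the name Bbc3, the gene of a cell death activator of the BCL2 family, and it is not analysed here. RNA of the supraoptic nucleus was sequenced from outbred male Sprague-Dawley rats 2 weeks after injection of adeno-associated virus, a vector that carries a gene into cells without replicating. All rats received both viruses: a short hairpin RNA against Opn3, which encodes the light-sensitive receptor opsin 3, in one nucleus and a non-targeting hairpin in the opposite one. The groups are called shOpn3 and shControl after the hairpin, with 5 samples in each, numbered 1 to 5 in the labels. Both groups thus carried virus and hairpin, and no uninjected nucleus is among the samples. The labels give no age for the rats and do not name the promoter or the cell types in which the hairpins were made, and the nuclei were taken as punches that can hold neighbouring tissue.

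p53 is a transcription factor that is held at a low level in healthy cells, mainly because Mdm2, one of its own targets, marks it for destruction. After DNA damage or other stress it accumulates and raises genes that stop the cell cycle, such as Cdkn1a, and genes that promote cell death, such as Bax and Bbc3. Neurons no longer divide, and in the brain p53 is studied mostly as a regulator of neuronal death, while dividing or reactive glia and immune cells use the same genes to control growth.

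p53 binds DNA as a tetramer, at a pair of short, similar elements. The gene starts of the members are shown first because such a site lies close to some of them. Of the 8 genes with values, 6 had a window of 300 bases around a start in the RefSeq promoter table of assembly GRCr8 (250 bases before the start that this table uses and 50 after). The search was for the consensus p53 response element without a spacer, a pair of adjoining 10-base elements that read the same on both strands. The C at the fourth and the G at the seventh base of each element were required, and at most 2 of the 20 bases were allowed to differ from the consensus. Such a site was found in the windows of Cdkn1a, Ccng1 and Aen, and in 0.335% of all 33469 windows in the table. The search rule was set after the windows were seen, and the members were chosen as known p53 targets. These shares are therefore a description and no test of enrichment. The windows of Mdm2, Phlda3 and Eda2r held none, and for Bax and Tp53inp1 no window was used. The sites are shown 5′ to 3′ on the strand of the gene, with the 20 bases of the match in capitals. For Cdkn1a (chr20:7150682-7150819, plus strand) and Ccng1 (chr10:25684877-25685126, minus strand) the sequence upstream of the annotated gene is printed, and for Aen (chr1:142224498-142224527, plus strand) the match with 5 bases on either side.
Cdkn1a: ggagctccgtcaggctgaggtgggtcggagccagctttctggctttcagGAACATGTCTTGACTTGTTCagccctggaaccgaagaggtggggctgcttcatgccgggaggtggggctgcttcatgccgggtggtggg
Ccng1: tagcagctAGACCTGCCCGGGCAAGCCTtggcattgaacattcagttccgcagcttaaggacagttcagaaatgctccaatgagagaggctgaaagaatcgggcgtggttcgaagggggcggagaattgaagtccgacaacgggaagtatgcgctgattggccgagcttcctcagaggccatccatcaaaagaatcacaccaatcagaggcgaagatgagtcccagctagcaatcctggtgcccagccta
Aen: aagccGGGCATGTCCGGGCAAGCAActact
Counted from the start that the promoter table uses, the match began 201 bases before it in Cdkn1a, 242 in Ccng1 and 30 in Aen. It differed from the consensus at 1, 1 and 2 of its 20 bases. For Cdkn1a the annotated gene begins upstream of that start, at the end of the 138 bases printed. For Aen it also begins upstream of that start, no later than the last base of the match. The Aen match thus does not lie wholly upstream of the annotated gene. A match of letters is a description and shows no binding, and no match says only that these letters are not in this window.

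Values are normalized counts, that is reads per gene divided by 1 size factor per sample. The recovered libraries held 33158341 to 39958578 reads. As the size factors ran from 0.942 to 1.07, normalized counts and reads were nearly equal. Opn3 itself fell in shOpn3, from 704 ± 277 to 188 ± 59.7 normalized counts (n = 5 each, ± SD; on the log2 scale a difference of -1.82 with SE 0.320 and a limma adjusted p = 0.00226). It was lower in 5 of 5 pairs, although the groups overlapped. The overlap came from shControl replicate 5, at 261 normalized counts, below the 290 of shOpn3 replicate 1. The other controls had 694 to 1007. Avp and Oxt, the vasopressin and oxytocin genes that define the neurons of this nucleus, were abundant in every sample, with at least 4619 and 3810 normalized counts. Both fell in shOpn3 (log2 fold changes -2.35 and -2.21; limma adjusted p = 0.00269 and 0.000915). In bulk tissue, fewer cells of a type and less RNA per cell cannot be told apart. Over all 15597 genes tested, 18.8% passed the threshold, an adjusted p under 0.05 over all genes tested, 10.4% higher and 8.48% lower in shOpn3.

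Of the 8 members, 1 was called higher in shOpn3 and 0 lower by limma, a share of 12.5% beside the 10.4% of all genes that were called higher. Ccng1 was the member that rose. Cdkn1a and Tp53inp1 had positive differences that missed the threshold (limma adjusted p = 0.0606 and 0.0511). Mdm2, Bax, Aen, Phlda3 and Eda2r did not pass the test either. At an unadjusted p under 0.05, the limma fit had Ccng1, Cdkn1a and Tp53inp1 higher and Eda2r lower, and it had 32% of all genes below that limit, 16.4% higher and 15.6% lower. The median log2 fold change of the 8 members was 0.038, against -0.019 for all genes tested. Among the 8 members, 1 had groups without overlap, while this held for 15.3% of all genes, 8.03% higher and 7.23% lower in shOpn3.

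The choice of fit mattered for 2 of them. With the replicate number as a block, which compares samples of the same number, limma called 3 of the 8 members, Ccng1, Cdkn1a and Tp53inp1, all higher and 0 lower. Of all genes this fit called 30.3%, with 15.1% higher and 15.2% lower. The authors' deposited table, an unpaired comparison, had the same 3 members past an adjusted p of 0.05, and 11.4% of all genes with an adjusted p higher. In that table the log2 fold changes were 0.52 for Ccng1, 0.83 for Cdkn1a and 0.48 for Tp53inp1 (adjusted p = 0.000465, 0.0117 and 0.0163).

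**Figure D1:**
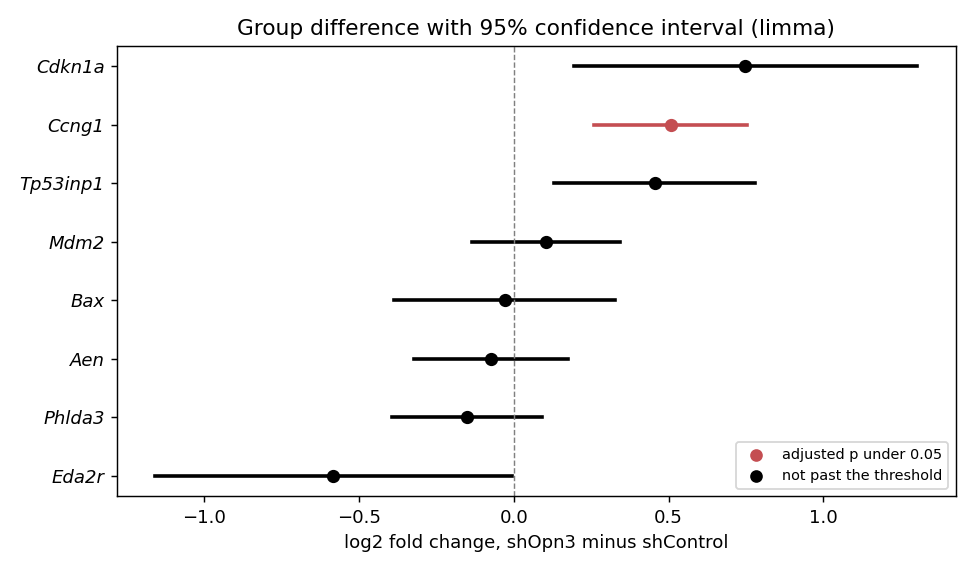
Log2 fold change (shOpn3 minus shControl, 5 samples each) of the 8 members, with points for the limma estimate and bars for its 95% confidence interval; red marks an adjusted p under 0.05. Ccng1 at 0.51 is the only red point, the bars of Cdkn1a, Tp53inp1 and Eda2r also lie to one side of 0, and those of the other 4 cross it.

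Markers of several cell types differed between the groups in the same samples. Of 12 microglia and macrophage markers 11 were called higher by limma, and their summed level was 11428 to 15734 normalized counts in shControl and 21006 to 42722 in shOpn3, highest in shOpn3 replicate 4. Of 7 tested T and NK cell markers 5 were called higher, with sums of 647 to 847 and 1558 to 4430, again highest in that sample. Most of this sum was Cd4, which rat macrophages also express, and Gzmb was at 0 in every sample. Of 8 astrocyte markers 3 were called higher. Of 8 oligodendrocyte markers 8 were called lower (sums of 731349 to 1246220 and 249044 to 470895), as were 7 of 7 magnocellular markers (sums of 64298 to 180811 and 12464 to 38845). Of 9 neuronal markers 1 was called higher, and 0 of 3 oligodendrocyte precursor and 0 of 7 endothelial and pericyte markers were called (0 of each at an unadjusted p under 0.05). The part of these cell types in the differences of Ccng1, Cdkn1a, Tp53inp1 and the pathway genes was not tested.

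Among the genes of cell cycle arrest, Ccng1 (ENSRNOG00000003256) encodes cyclin G1, an atypical cyclin that recruits a phosphatase to Mdm2. Its normalized counts were 5025, 5908, 6332, 5646 and 5755 in shControl replicates 1 to 5, and 6547, 8031, 9243, 10048 and 7240 in shOpn3 replicates 1 to 5. Every shOpn3 sample thus lay above every shControl sample, with shOpn3 replicate 1 only just above shControl replicate 3. The means were 5733 ± 474 and 8222 ± 1430 (n = 5 each, SD). The log2 fold change was 0.51 with an SE of 0.114 (limma adjusted p = 0.00880), which is 1.42-fold. The same-numbered control was exceeded in 5 of 5 pairs, at 130%, 136%, 146%, 178% and 126% of its value. The call held in all 25 alternative fits, which used other settings or left samples out, with log2 fold changes from 0.43 to 0.58.

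Cdkn1a (ENSRNOG00000000521) encodes p21, the inhibitor of cyclin-dependent kinases through which p53 stops cell division. Its normalized counts were 294, 243, 209, 234 and 359 in shControl replicates 1 to 5 and 279, 343, 450, 842 and 465 in shOpn3 replicates 1 to 5. The groups overlapped, because shOpn3 replicates 1 and 2 lay below shControl replicate 5, and shOpn3 replicate 4 stood far above all other samples. The means were 268 ± 59.4 and 476 ± 219 (n = 5 each, SD). This gave a log2 fold change of 0.75 with an SE of 0.255 (limma adjusted p = 0.0606; 95% confidence interval 0.19 to 1.30). This was the largest estimate among the members and also one of the most variable. By pair, shOpn3 stood at 95.1%, 141%, 215%, 360% and 130% of the same-numbered control, so it was higher in 4 of 5 pairs. Limma with the block called it (adjusted p = 0.0489), as did edgeR's quasi-likelihood test (log2 fold change 0.82, adjusted p = 0.0473), which called 3 members and 10.4% of all genes higher. The edgeR fit with the block also called 3 members and 14.7% of all genes higher. Cdkn1a was also called by limma without shControl replicate 5 (log2 fold change 0.86, adjusted p = 0.0421) and without shOpn3 replicate 1 (0.91, adjusted p = 0.0210). Without shOpn3 replicate 4 the log2 fold change was 0.52 (limma adjusted p = 0.0946). Cdkn1a was called in 7 of the 25 alternative fits. Its limma adjusted p was highest, at 0.204, without both samples numbered 3.

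**Figure D2:**
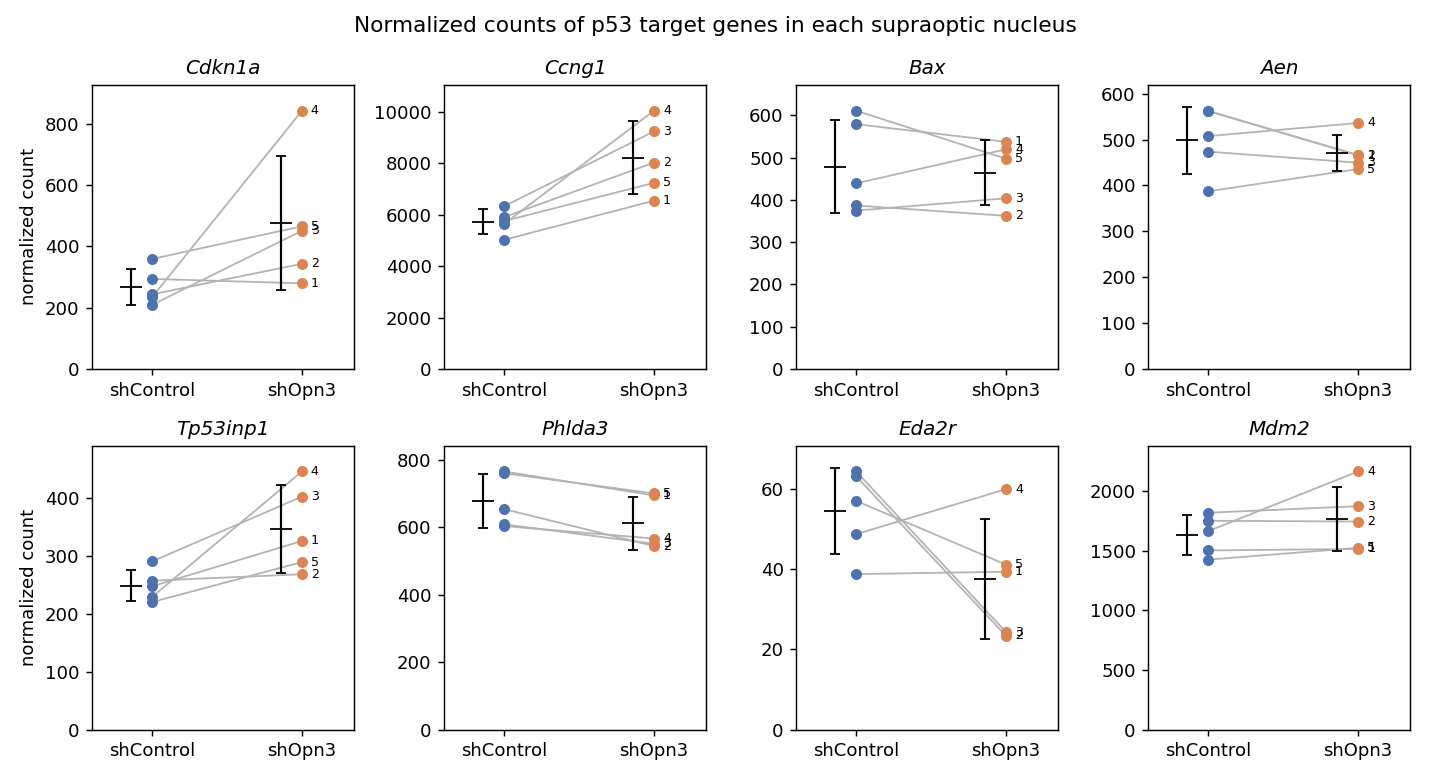
Normalized counts (linear axes from 0) of the 8 members in the 5 shControl (blue) and 5 shOpn3 (orange) samples; grey lines join samples of the same number, the digits give that number, and black bars show mean ± SD. Ccng1 is separated between the groups, Cdkn1a reaches 842 in shOpn3 replicate 4 while the second highest sample is at 465, and Bax, Aen and Mdm2 overlap widely.

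Mdm2 (ENSRNOG00000006304), the ubiquitin ligase that closes the feedback loop on p53, had 1504, 1752, 1820, 1666 and 1426 normalized counts in shControl replicates 1 to 5. In shOpn3 replicates 1 to 5 it had 1516, 1746, 1875, 2166 and 1526. The groups overlapped almost completely, and only shOpn3 replicates 3 and 4 exceeded all controls. The means were 1634 ± 165 and 1766 ± 270 (n = 5 each, SD). The log2 fold change was 0.11 with an SE of 0.110 (limma adjusted p = 0.555). The 95% confidence interval ran from -0.13 to 0.34. Without shOpn3 replicate 4 the Mdm2 estimate was 0.028, and without shControl replicate 5 it was 0.058. The paired values were 101%, 99.7%, 103%, 130% and 107% of the same-numbered control, so pair 4 alone stood apart.

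Of the genes that promote cell death, Bax (ENSRNOG00000020876) encodes the protein that forms pores in the outer mitochondrial membrane. It had 579, 387, 375, 439 and 611 normalized counts in shControl replicates 1 to 5 and 537, 362, 404, 520 and 497 in shOpn3 replicates 1 to 5. Both groups spanned nearly the same range (means 478 ± 110 and 464 ± 76.8; SD, n = 5 each). In both groups replicates 2 and 3 had the lowest values. The log2 fold change was -0.03 (SE 0.165; limma adjusted p = 0.925; 95% confidence interval -0.39 to 0.33). Its sign turned when single libraries were left out, with a log2 fold change of 0.047 without shControl replicate 1, 0.066 without shControl replicate 5, 0.055 without shOpn3 replicate 2 and 0.016 without shOpn3 replicate 3.

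Aen (ENSRNOG00000018421), which encodes an apoptosis-enhancing nuclease that cuts DNA and RNA, had 563, 562, 474, 507 and 387 normalized counts in shControl replicates 1 to 5. In shOpn3 replicates 1 to 5 it had 465, 466, 450, 536 and 436, all inside the shControl range. The means were 499 ± 72.8 and 471 ± 38.8 (n = 5 each, SD). This gave a log2 fold change of -0.07 with an SE of 0.115 (limma adjusted p = 0.704; 95% confidence interval -0.32 to 0.18). The Aen estimate was -0.027 without shControl replicate 1 or 2 and -0.047 without shOpn3 replicate 5, and it was -0.161 without shControl replicate 5 and -0.122 without shOpn3 replicate 4. Aen, Cdkn1a and Ccng1 each had the p53 site printed above, and Ccng1 was the only one of the 3 called by limma without the block.

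Tp53inp1 (ENSRNOG00000007964) encodes a stress-induced protein that acts on p53 in the nucleus and in autophagy. Its normalized counts were 248, 257, 291, 229 and 220 in shControl replicates 1 to 5 and 326, 269, 403, 446 and 290 in shOpn3 replicates 1 to 5. The overlap was narrow: shOpn3 replicates 2 and 5 lay below shControl replicate 3, and the other 3 shOpn3 samples lay above all controls. The means were 249 ± 27.5 and 347 ± 75.5 (n = 5 each, SD). The log2 fold change was 0.45 with an SE of 0.149 (limma adjusted p = 0.0511; 95% confidence interval 0.13 to 0.78). Each of the 5 pairs had the higher value in shOpn3, which stood at 132%, 104%, 138%, 195% and 131% of the same-numbered control. With the block limma called it (adjusted p = 0.0266). Limma without the block called it when shControl replicate 3 was left out (log2 fold change 0.51, adjusted p = 0.0445) and when shOpn3 replicate 2 was left out (0.54, adjusted p = 0.0270). It was also called by limma with TMM scaling (adjusted p = 0.0463) and with a stricter filter on low values (adjusted p = 0.0496). Without shOpn3 replicate 4 the log2 fold change was 0.36 (limma adjusted p = 0.110). Tp53inp1 was called in 8 of the 25 alternative fits. Its limma adjusted p was highest, at 0.201, without both samples numbered 4.

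Phlda3 (ENSRNOG00000009068) encodes a small membrane-binding protein that represses the survival kinase Akt. It had 765, 653, 608, 603 and 760 normalized counts in shControl replicates 1 to 5 and 694, 544, 550, 566 and 700 in shOpn3 replicates 1 to 5. Every shOpn3 sample was below its same-numbered control, at 90.7%, 83.2%, 90.5%, 93.9% and 92.1%, although the groups overlapped. The means were 678 ± 79.5 and 611 ± 78.9 (n = 5 each, SD). Its log2 fold change of -0.15 missed the threshold both without the block (SE 0.111; limma adjusted p = 0.386) and with it (SE 0.0618; limma adjusted p = 0.0992).

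Eda2r (ENSRNOG00000013018) encodes a receptor of the tumour necrosis factor family that binds one form of ectodysplasin. It was the member with the fewest reads, between 22 and 63 per sample. Its normalized counts were 38.7, 63.1, 64.3, 48.7 and 57.0 in shControl replicates 1 to 5 and 39.3, 23.4, 24.3, 59.9 and 41.1 in shOpn3 replicates 1 to 5. The spread within shOpn3 covered most of the shControl range, with low values in replicates 2 and 3. The means were 54.4 ± 10.7 and 37.6 ± 14.9 (n = 5 each, SD). This gave a log2 fold change of -0.58 with an SE of 0.264 (limma adjusted p = 0.151). The block left this at an adjusted p of 0.152. The pairs differed, at 102%, 37.0%, 37.8%, 123% and 72.1% of the same-numbered control. Its ligand gene Eda, its sister receptor gene Edar and the adaptor gene Edaradd were not called either (log2 fold changes 0.13, 0.01 and -0.17; limma adjusted p = 0.560, 0.982 and 0.741).

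**Figure D3:**
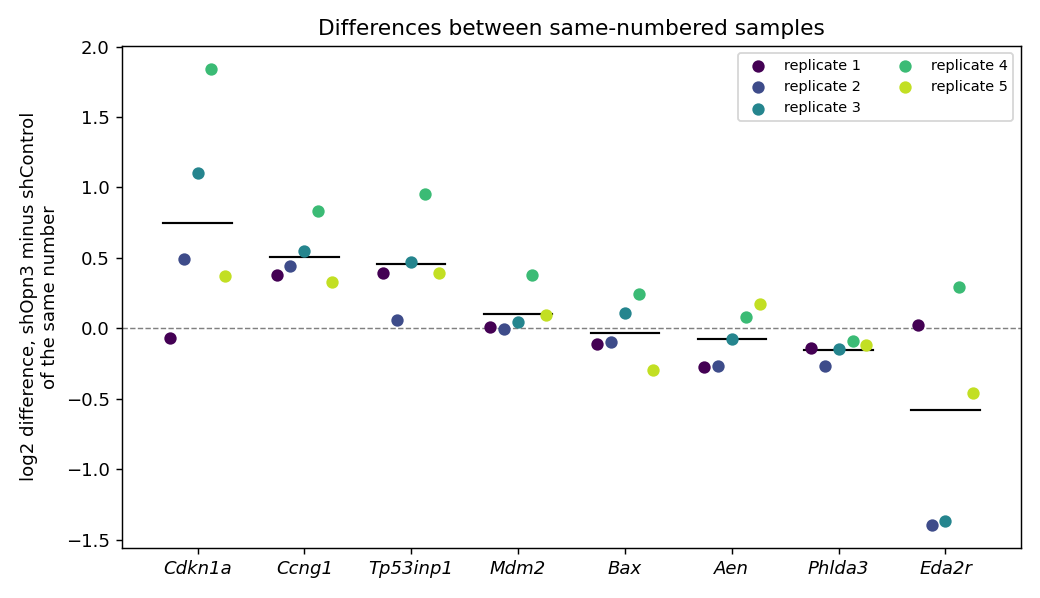
Log2 difference between the shOpn3 and shControl samples of the same number (vertical axis) for each member, with 1 point per pair coloured by replicate number and a bar at the mean of the 5 pairs. All 5 points lie above 0 for Ccng1 and Tp53inp1 and below 0 for Phlda3, and pair 4 is the highest of its column for Cdkn1a at 1.84.

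All 5 pairs had the same direction for 3 of the 8 members, Ccng1, Tp53inp1 and Phlda3, while this held for 39.4% of all genes tested, 18.7% higher and 20.7% lower in shOpn3. The samples of one group were not alike. Of the 5 shOpn3 samples, replicate 4 was the highest for 6 of the 8 members, all but Bax and Phlda3. The same sample was the highest of its group for 26.1% of all genes tested, and for 45.8% of the genes called higher by limma. Replicate 2 was the lowest of its group for 4 members, and replicate 1 for 3. The differences of pair 4 were 1.84 on the log2 scale for Cdkn1a, 0.96 for Tp53inp1 and 0.83 for Ccng1.

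The genes whose log2 values were most like those of Cdkn1a over the 10 samples, of 14048 named genes compared, were Bst2 (Pearson r = 0.987), Tapbpl (r = 0.985) and RT1-S3 (r = 0.978). Bst2 encodes tetherin, an interferon-induced protein that holds budding viruses at the cell surface. Tapbpl encodes a chaperone that loads peptides onto class I histocompatibility molecules, and RT1-S3 is one of the rat genes for such molecules. After the group means were removed, r was 0.977, 0.978 and 0.965. These values describe 10 libraries that share their processing, and both sets of r come from the samples on which the genes were picked as the highest of many. Bst2 had 227 to 434 normalized counts in shControl and 373 to 1051 in shOpn3 (log2 fold change 0.83 with SE 0.272; limma adjusted p = 0.0512, or 0.0374 with the block). Tapbpl had a log2 fold change of 0.37 (limma adjusted p = 0.0516; 0.0493 with the block). RT1-S3 rose by 0.64 (limma adjusted p = 0.0289). That call was lost without shControl replicate 2, 3 or 4 or shOpn3 replicate 3 or 5 (adjusted p from 0.0506 to 0.0662), and reads of this gene family can be shared among near copies.

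The other genes of the pathway were taken from lists. The list of p53 regulators comes first. Of 17 listed, 13 were tested, with 2 called higher and 3 lower by limma (median log2 fold change 0.078, against -0.019 for all genes). Over all genes tested, 10.4% were called higher and 8.48% lower. Atm, the kinase that signals DNA breaks to p53, rose from 2469 ± 248 to 3630 ± 709 normalized counts (n = 5 each, ± SD; on the log2 scale a difference of 0.54 with SE 0.124 and a limma adjusted p = 0.00984) and stayed called in all 25 alternative fits. Mdm4, the partner of Mdm2 that masks p53, had 1953 ± 259 and 1904 ± 114 (SD, n = 5 each; on the log2 scale a difference of -0.03 with a limma adjusted p = 0.873). With the block limma called 7 of these genes, 4 of them higher, beside 30.3% of all genes, 15.1% higher and 15.2% lower. The count of 5 called without the block was 1 without shControl replicate 4 or shOpn3 replicate 3, 2 without shControl replicate 2 or shOpn3 replicate 5, and 3 without shControl replicate 3 or 5 or shOpn3 replicate 2 or 4.

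The 3 regulators called lower were Tp53bp1, a scaffold at DNA breaks, Kat5, an acetyltransferase that modifies p53 and Atm, and Hipk2, a kinase of p53. Their log2 fold changes were -0.43, -0.27 and -0.26 (limma adjusted p = 0.0355, 0.0367 and 0.0441). These calls were near the threshold. That of Tp53bp1 was lost without shControl replicate 2, 3 or 4 or shOpn3 replicate 3, 4 or 5 (adjusted p from 0.0687 to 0.0875). Kat5 was not called when any one library other than shOpn3 replicate 1 was left out (adjusted p from 0.0522 to 0.103). Hipk2 was not called when any one library other than shOpn3 replicates 1 and 4 was left out (adjusted p from 0.0585 to 0.115).

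Of 30 further p53 targets listed, 25 were tested, with 5 called higher and 3 lower by limma and 17 not called. Their median log2 fold change was 0.0054, and the direction of the called genes was thus mixed. Of all genes tested, limma called 10.4% higher and 8.48% lower. Fas, a death receptor, rose from 133 ± 15.2 to 294 ± 56.8 normalized counts (n = 5 each, ± SD; on the log2 scale a difference of 1.12 with SE 0.151 and a limma adjusted p = 0.000575). Sesn2, which restrains growth signalling under stress, rose from 512 ± 38.6 to 1132 ± 477 (SD, n = 5 each; on the log2 scale a difference of 1.05 with SE 0.228 and a limma adjusted p = 0.00730). Plk2, a kinase that neuronal activity also induces, rose from 1541 ± 121 to 2642 ± 339 (SD, n = 5 each; on the log2 scale a difference of 0.77 with SE 0.0936 and a limma adjusted p = 0.000373). For all 3 the groups did not overlap and 5 of 5 pairs were higher. The other two called higher were Btg2 and Gadd45a, both growth arrest genes, which fall outside the naming rule and were named after their values were seen.

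The 3 called lower were Plk3, a stress-response kinase, Spata18, which acts in the quality control of mitochondria, and Tp53i11. Their log2 fold changes were -0.58, -0.54 and -0.48 (limma adjusted p = 0.0111, 0.0413 and 0.00504), each lower in 5 of 5 pairs. Plk3 went from 202 ± 33.0 to 134 ± 15.5 normalized counts (SD, n = 5 each). Tp53i11, a p53-induced gene of less known function, went from 4668 ± 707 to 3319 ± 239 (SD, n = 5 each). Spata18, with 36.1 ± 4.15 normalized counts in shOpn3 (SD, n = 5), was not called when any one library other than shOpn3 replicate 5 was left out (adjusted p from 0.0504 to 0.110). Sesn1, Zmat3, Pmaip1 and Ddb2, also established targets and named after their values were seen, had log2 fold changes of -0.02, -0.03, -0.03 and 0.03. Other uncalled targets lay further from 0 and were likewise named after their values were seen. Dram1, Tigar and Perp had log2 fold changes of 0.41, 0.25 and -0.31 (limma adjusted p = 0.139, 0.0594 and 0.401). Of these, limma with the block called Tigar higher (adjusted p = 0.0222).

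**Figure D4:**
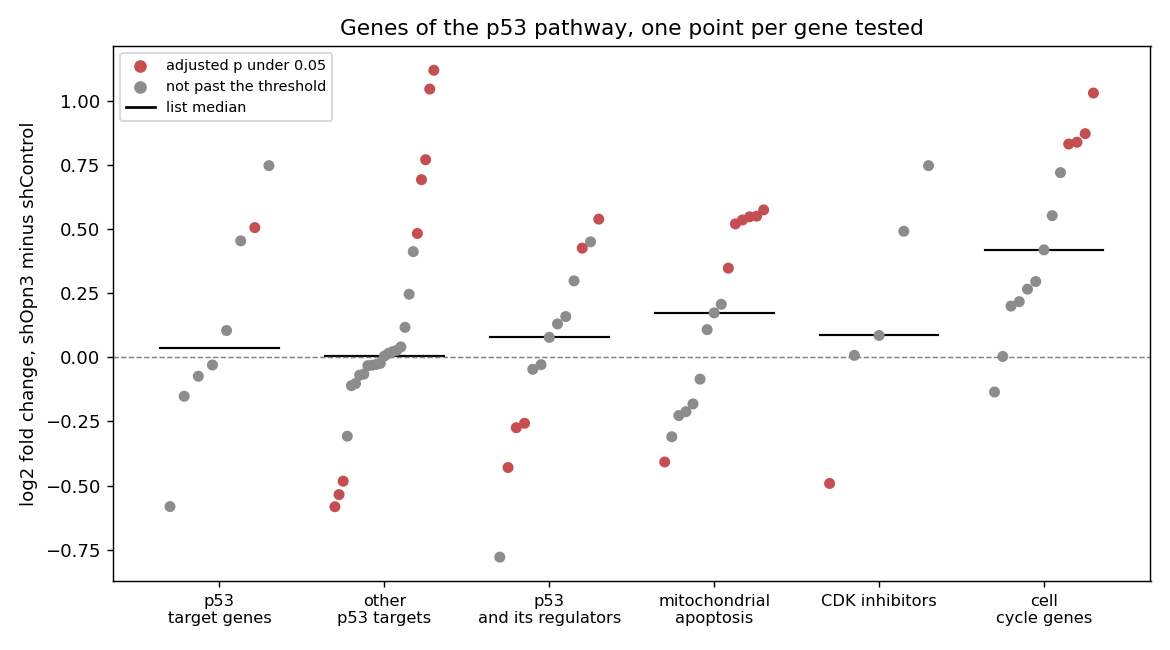
Log2 fold change (shOpn3 minus shControl) of each tested gene in 6 lists, 1 point per gene, red where the limma adjusted p is under 0.05, with a bar at the list median. Red points lie on both sides of 0 among the other p53 targets and the regulators, and only above 0 among the cell cycle genes.

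The mitochondrial cell death pathway, on which Bax acts, had 15 of 18 listed genes tested. Limma called 6 higher and 1 lower (median log2 fold change 0.17), beside 10.4% of all genes higher and 8.48% lower. Apaf1, the scaffold of the apoptosome, rose from 887 ± 82.1 to 1304 ± 181 normalized counts (n = 5 each, ± SD; on the log2 scale a difference of 0.55 with SE 0.107 and a limma adjusted p = 0.00399). Bmf, a BH3-only activator of cell death, had a log2 fold change of 0.58 (limma adjusted p = 0.0404). That call was lost without shControl replicate 2, 3 or 4 or shOpn3 replicate 1, 3, 4 or 5 (adjusted p from 0.0578 to 0.0879). Bcl2l1, which encodes the survival protein BCL-XL, fell from 2124 ± 350 to 1591 ± 172 (SD, n = 5 each; on the log2 scale a difference of -0.41 with SE 0.116 and a limma adjusted p = 0.0273). It was not called without shControl replicate 1 or 5 or shOpn3 replicate 2 or 3 (adjusted p from 0.0554 to 0.0770). The count of 7 called genes was 4 without shControl replicate 2, shControl replicate 3 or shOpn3 replicate 4, and 3 without shOpn3 replicate 3.

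Cdkn1a belongs to the cyclin-dependent kinase inhibitors, and the others of this family were listed beside it. Of 7 listed, 5 were tested, with 0 called higher and 1 lower by limma, beside 10.4% and 8.48% of all genes. Cdkn1b, the gene of the related inhibitor p27, fell from 2050 ± 154 to 1457 ± 109 normalized counts (n = 5 each, ± SD; on the log2 scale a difference of -0.49 with SE 0.0780 and a limma adjusted p = 0.00126), with no overlap, in 5 of 5 pairs and in all 25 alternative fits. With the block, limma called Cdkn1a and Cdkn2b higher, the latter named after its values were seen (log2 fold change 0.49; limma gave an adjusted p of 0.0939 without the block and 0.0194 with it). The blocked fit called 15.1% of all genes higher. Without shControl replicate 5 or shOpn3 replicate 1, each left out alone, limma without the block called 2 inhibitors other than Cdkn1a in place of 1.

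Genes of cell division, which p53 is known to lower through p21, were tested for 13 of 15 listed. Limma called 4 higher and 0 lower (median log2 fold change 0.42), beside 10.4% of all genes higher and 8.48% lower. The 4 were Mcm5, a helicase subunit of DNA replication, Cdc25c, a phosphatase that starts mitosis, Bub1, a mitotic checkpoint kinase, and Ccnb1, named after its values were seen. Mcm5 had 64.0 ± 9.37 and 148 ± 72.4 normalized counts (n = 5 each, ± SD; on the log2 scale a difference of 1.03 with SE 0.334 and a limma adjusted p = 0.0491). Cdc25c and Bub1 had log2 fold changes of 0.87 and 0.84 (limma adjusted p = 0.0288 and 0.0365). Mcm5 was not called when any one library other than shOpn3 replicate 1 was left out (adjusted p from 0.0563 to 0.122). The call of Cdc25c was lost without shControl replicate 1, 4 or 5 or shOpn3 replicate 3 or 4 (adjusted p from 0.0582 to 0.0725). That of Bub1 was lost without shControl replicates 1 to 4 or shOpn3 replicates 3 to 5, each left out alone (adjusted p from 0.0559 to 0.0992). Under quantile normalization 1 gene of this list was called, as it was without shControl replicate 1 or 4 or shOpn3 replicate 3 or 4. Without shControl replicate 2, 3 or 5 or shOpn3 replicate 5 the count was 2. Mki67 and Top2a, markers of dividing cells named after their values were seen, stood at 630 and 551 normalized counts in shOpn3 replicate 4 and at no more than 236 and 201 in any other sample.

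Neighbouring genes were checked because counting without strand can mix reads of adjacent genes, and the counting mode is not given in the sources used here. In the RefSeq table of GRCr8, 4 members had a named gene of the deposited table within 5000 bases. Isg20, an interferon-induced nuclease gene 826 bases from Aen, rose from 24.9 ± 6.84 to 60.6 ± 28.7 normalized counts (n = 5 each, ± SD; on the log2 scale a difference of 1.18 with a limma adjusted p = 0.0186), while Aen did not pass the test. Cpm, a carboxypeptidase gene 4443 bases from Mdm2, fell from 3389 ± 587 to 1589 ± 303 (SD, n = 5 each; on the log2 scale a difference of -1.10 with a limma adjusted p = 0.000463). Rab44 beside Cdkn1a and Ftl1 beside Bax had at most 12 and 7 reads in any sample and were not tested. In the same RefSeq table Phlda3 overlaps a ribosomal protein pseudogene and Cdkn1a lies 50 bases from a long non-coding RNA gene, neither of which was analysed here, and reads of these pairs may be shared.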

How the data were processed

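RNA from punches of the supraoptic nucleus was sequenced in 5 shControl and 5 shOpn3 samples, grouped by the labels. The submitters' processing notes name FastQC, STAR, featureCounts and DESeq2; the genome build, annotation and strand setting are not given in the sources used here. The deposited values are a signal, gene counts divided by 1 size factor per sample, and whole reads were recovered for 100% of values (tolerance 1e-06). Refitting these reads in DESeq2 gave the log2 fold changes and adjusted p-values (p-value columns) of the authors' deposited table, with 0 genes differing by more than 1e-04. No sample column was left unused.

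The main test was limma 3.58.1 (R 4.3.3; lmFit, eBayes with trend, two-sided) on log2(normalized count + 1), over 15597 genes with a mean of at least 10, with Benjamini-Hochberg adjustment over all of them and a threshold of 0.05. All fold changes from limma are on this scale, which understates those of low genes. The design allowed for edgeR as the main test only for files of whole counts, so edgeR 4.0.16 and DESeq2 1.42.0 were alternatives on the recovered reads. Others were pseudocounts of 0.5 and 8, no filter, a mean of at least 50, TMM scaling, quantile normalization, the replicate number as a block, and leaving out each sample or number. Scripts were tested on simulated data. No label says outright that the 5 samples of a group came from separate rats, so p-values measure only the spread between these samples, which may in part be technical.

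Per the labels each rat gave both a shControl and a shOpn3 nucleus, but whether samples with the same number came from the same rat is not stated. Deviations from the group means correlated between same-numbered samples across genes, where r was 0.121 to 0.439. For different numbers the median was -0.205 and the highest 0.36, above the 0.121 of pair 4. With group means removed, positive r for the same numbers push those for different numbers to negative values. The negative median is therefore no separate sign of pairing. As each same-numbered r was above 0.1, samples of the same number were compared as pairs, although these r do not settle the pairing. The fit without the block was the main one because no label states the pairing. If equal numbers do mark the same rat, that fit ignores the pairing. The blocked fit, which called 3 of the 8 members, takes it into account.

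The members and gene lists were chosen with earlier results of these data known, and the promoter criterion after the windows were seen. Named beside the members were Opn3, Avp, Oxt and Mdm4, up to 3 largest rises and 3 largest falls among called genes of each pathway list, the 3 genes most like Cdkn1a, and RefSeq neighbours within 5000 bases. A few genes chosen in this way are not reported here.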

Additional observations from a re-analysis of the deposited data

Results flagged for a closer look

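Among 76 sets of 5 values (the genes chosen by the naming rule, in each group), 4 held a highest or lowest sample set apart from its neighbour by more than Dixon's 95% limit; chance flags about 1 in 20 sets, or 3.8 here. None of the 8 p53 target genes was among them. Tp53i11 was high in shControl replicate 1, at 5908 normalized counts against 4510 for the second highest, and Bub1 was low there, at 53.01 against 76.5. Oxt was high in the same sample, at 56716 against 21354. Cpm, the neighbour of Mdm2, was high in shControl replicate 5, at 4424 against 3285.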

How the results depend on the processing

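The count of members called higher, 1 in the main analysis, was 2 with a mean of at least 50 and with TMM scaling. It was 3 with edgeR, DESeq2, limma with the replicate block and edgeR with the replicate block. Among all genes, 1397 of 13518 were called higher with a mean of at least 50 and 1636 of 15597 with TMM scaling. The shares of all genes called higher were 10.4% with edgeR and 11.4% with DESeq2. With the block they were 15.1% in limma and 14.7% in edgeR. The count of members called higher ranged from 1 to 2 when samples or numbers were left out, and the count called lower from 0 to 0. In these fits 961 to 1651 of all 15597 genes were called higher and 643 to 1405 lower. The fewest were without both samples numbered 3 and the most without shOpn3 replicate 1. Over all genes the 2940 calls became 4726 with the replicate block in limma and 4777 with it in edgeR, and 1604 to 3056 when samples or numbers were left out (1895 without both samples numbered 2 and 1604 without those numbered 3). In the lists, leaving out samples or numbers gave 4 to 8 other p53 targets (8 in the main analysis; 5 without number 2 and 4 without number 3), 1 to 5 regulators, 3 to 7 genes of mitochondrial cell death, 1 to 2 kinase inhibitors other than Cdkn1a, 0 to 4 cell cycle genes (0 without number 5) and 0 to 0 ectodysplasin genes. Quantile normalization gave 3 regulators and 1 cell cycle gene, and the replicate block 2 kinase inhibitors in limma and 2 in edgeR.

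With samples or numbers left out, the log2 fold change of Bax ran from -0.1099 (without shControl replicate 3) to 0.0662 and that of Mdm4 from -0.101 to 0.0264, and both changed sign in 5 and 4 of these fits. Mdm4 was also at 0.0027 under quantile normalization. For the 8 members, 179 of 199 alternative values kept both direction and side of the threshold, 15 passed it where the main value had not, and 5 changed sign. For 28 other genes chosen by the naming rule, 549 of 698 kept both, 127 lost the call, 17 gained it and 5 changed sign. The cause was not tested. Depth limits Eda2r most, with 22 to 63 reads per sample.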
